A study of Rattus norvegicus with 12 samples.

Results

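The genes for the Kv3 family of fast-spiking potassium channels were examined in the auditory midbrain, the inferior colliculus (IC), of SD (Sprague-Dawley) rats. The family members looked for were Kcnc1, Kcnc2 and Kcnc4, and each was to be read from the brightest probe that the platform annotation pairs with its symbol alone. Of these 3 genes 2 were measured, Kcnc1 (Entrez 25327) and Kcnc2 (Entrez 246153), with 1 probe each, out of 18166 genes in all. Kcnc4 was not analysed here, because no probe used was paired with its symbol.

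Per the labels, the deaf arm was 20 rats whose right cochlea was ablated, and the control arm was 20 rats given a sham operation, in which the skin behind the ear was cut and the bulla was not drilled. Tissue was taken 2 weeks later. The 12 arrays gave 4 groups of 3: left IC of deaf rats, left IC of control rats, right IC of deaf rats and right IC of control rats. Neither the age of the rats nor the number of rats behind an array is stated. On the tissue the labels disagree. Hippocampus is given in the title of the series and again in text describing the samples. The sample titles and the tissue entries give IC, which was used here. The p-values here measure the spread between arrays, which may be technical.

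Kv3 channels open only when a neuron is strongly depolarised and close quickly afterwards, which repolarises the membrane fast enough for spikes to follow one another at short intervals. Kcnc1 encodes Kv3.1 and Kcnc2 encodes Kv3.2, both of them delayed rectifiers, whereas Kcnc4 encodes Kv3.4, which inactivates rapidly. Subunits of the family assemble into tetramers and may mix. Auditory brainstem and midbrain neurons are a classical site of Kv3.1, and in rodent brainstem its level is known to vary with sound and with hearing. The pathway from each ear to the IC mostly crosses, and the left IC lies opposite the ablated ear.

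The promoters shown for both measured genes lie at annotated starts, and whether the measured transcripts begin there was not tested. The promoters differ in composition. They are RefSeq windows of 300 bases on the plus strand of GRCr8, 250 before the annotated start and 50 after it, at chr1:106038997-106039296 for Kcnc1 and chr7:49587364-49587663 for Kcnc2, where RefSeq lists 2 starts and the first is given. Capitals mark GC boxes, the motif GGGCGG on either strand.
Kcnc1: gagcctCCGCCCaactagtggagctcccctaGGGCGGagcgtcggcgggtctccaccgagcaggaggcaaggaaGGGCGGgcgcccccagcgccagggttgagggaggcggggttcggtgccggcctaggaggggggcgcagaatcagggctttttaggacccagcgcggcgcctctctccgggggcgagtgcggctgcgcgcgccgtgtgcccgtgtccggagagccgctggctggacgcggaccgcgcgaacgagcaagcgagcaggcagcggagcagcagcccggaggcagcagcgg
Kcnc2: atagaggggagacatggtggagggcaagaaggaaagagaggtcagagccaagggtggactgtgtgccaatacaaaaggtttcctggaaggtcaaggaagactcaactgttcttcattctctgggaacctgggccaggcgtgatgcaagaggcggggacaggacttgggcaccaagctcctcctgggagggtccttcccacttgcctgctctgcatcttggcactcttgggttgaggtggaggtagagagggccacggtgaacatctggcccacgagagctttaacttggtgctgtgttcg
The Kcnc1 window held 3 GC boxes, which are binding motifs of Sp-family factors, and 74% of its bases were G or C, more than in 96.0% of the 33469 windows of the same length. The Kcnc2 window held 0 GC boxes and was 56% G or C, more than 63.1% of windows; a GC box was found in 33.1% of all windows. Neither window held the cAMP response element TGACGTCA (1.83% of windows), its half-site TGACG, which the full element contains (21.2%), the AP-1 motif TGANTCA (7.33%) or the E-box CACGTG (6.42%), with both strands searched.

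Values are log2 intensities as the authors deposited them, and both probes were bright: the mean over the 12 arrays was 8.79 for Kcnc1 and 9.31 for Kcnc2, above the upper quartile of gene means, 7.33. Probe brightness does not rank the 2 genes against each other. Of 13 measured IC and tectal markers 6 had means above that upper quartile, among them Slc17a6 (9.75), Gad1 (10.1), Gata3 (7.83) and Otx2 (7.55), against 0 of 11 forebrain and hippocampal markers. The forebrain markers ran from Neurod6 (3.40) to Bcl11b (7.12), with Zbtb18 (7.05) and Lhx2 (6.87) near the upper end. In the IC list Tal1 (5.65), Pax7 (5.37), Tfap2b (5.32) and Tal2 (5.14) lay below the median of gene means, 5.97. The lists therefore overlapped in level. Gad1 and Gad2 of the IC list are also on the fast-spiking neuron list used below, so they do not mark the IC alone. The arrays correlated with each other at 0.982 to 0.993, and right control 3 lay farthest from the rest on the first principal component (27.3; 21.1% of the variance). In bulk tissue, fewer cells of a type and less RNA per cell cannot be told apart.

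Kcnc1 had nearly the same level in all 4 groups. It was at 8.88, 8.83 and 8.72 in left deaf arrays, against 8.73, 9.02 and 8.62 in left control arrays. In right deaf arrays it was at 8.81, 8.72 and 8.82, against 8.73, 8.71 and 8.87 in right control arrays. Deaf and control arrays overlapped on both sides, and the highest and the lowest of the 12 values, 9.02 and 8.62, were both in left control. The order of the group means was left deaf (8.81 ± 0.084, SD, n = 3), left control (8.79 ± 0.21), right deaf (8.78 ± 0.055) and right control (8.77 ± 0.089). Neighbours in that order were at most 0.019 apart, below every one of these SDs, and the whole order spanned 0.044.

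Kcnc2 group means were farther apart than those of Kcnc1, and arrays of every pair of groups overlapped. It was at 9.14, 9.21 and 9.35 in left deaf arrays, against 9.37, 9.47 and 9.22 in left control arrays. In right deaf arrays it was at 9.39, 9.40 and 9.34, against 9.35, 9.37 and 9.13 in right control arrays. The groups overlapped on both sides, and the right deaf arrays lay closest together. The means ran from right deaf (9.37 ± 0.031, SD, n = 3) through left control (9.35 ± 0.13) and right control (9.28 ± 0.13) to left deaf (9.23 ± 0.11). Neighbours were at most 0.067 apart and each of these gaps was smaller than either SD of its pair. The ends, right deaf and left deaf, were 0.14 apart, more than the residual SD of 0.11 and than either of their own SDs, with left deaf 3 inside the right deaf range.

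**Figure D1:**
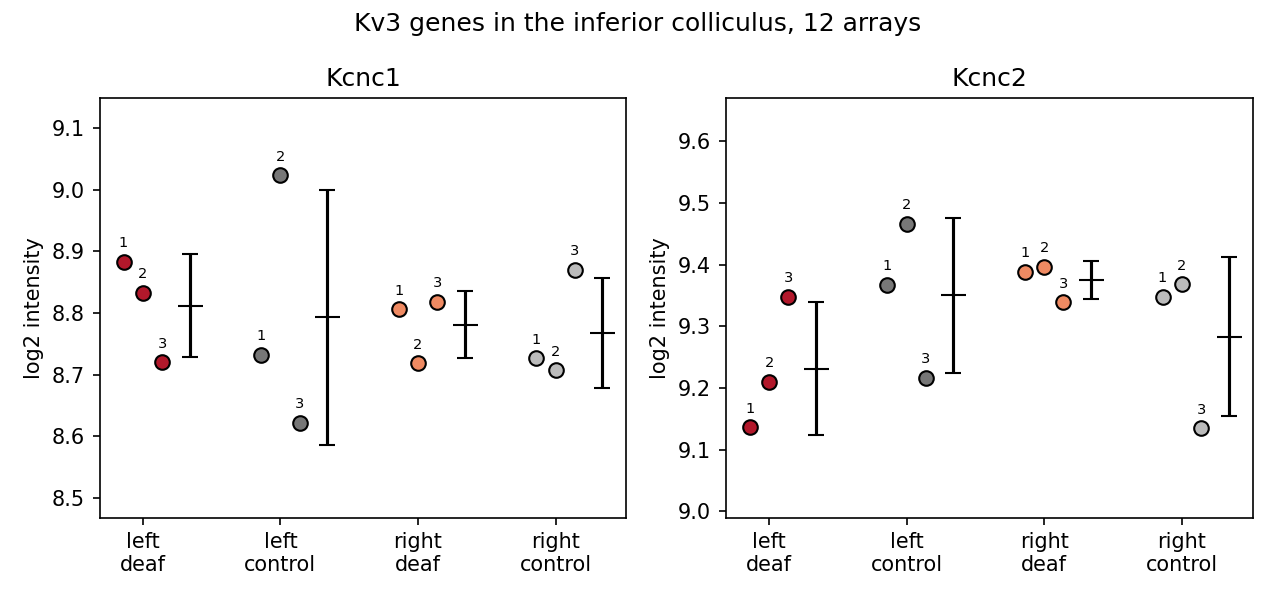
Log2 intensity of Kcnc1 (left panel) and Kcnc2 (right panel) on each array, with the replicate number above each point, in left deaf, left control, right deaf and right control IC; bars beside the points are the mean ± SD of 3 arrays. Points of every pair of groups overlap, and left control holds both the highest (9.02) and the lowest (8.62) Kcnc1 value.

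Opposite the ablated ear, the question was whether loss of the main input to the left IC went with a change of Kv3 transcripts. The left difference, deaf minus control, was 0.019 for Kcnc1 (SE 0.10, n = 3 arrays per group, 95% interval -0.21 to 0.25) and -0.12 for Kcnc2 (SE 0.096, -0.33 to 0.091). As ratios these intervals run from 0.865 to 1.19 for Kcnc1 and from 0.797 to 1.06 for Kcnc2. Neither gene passed limma's test (adjusted p = 1.00 for both), the arrays of both overlapped between groups, and 86.4% of genes differed more than Kcnc1 and 33.3% more than Kcnc2. In this comparison 0% of all genes passed the adjusted threshold of 0.05, 3.69% had an unadjusted p under 0.05 and 10.3% had arrays that did not overlap.

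On the same side as the ablated ear, both differences again lay within the spread. Right deaf minus control was 0.013 for Kcnc1 (SE 0.10, 95% interval -0.22 to 0.24) and 0.091 for Kcnc2 (SE 0.096, -0.12 to 0.30), that is ratios of 0.861 to 1.18 and of 0.921 to 1.23. Neither passed (limma adjusted p = 1.00 for both), and again neither gene's arrays were apart. The Kcnc2 difference leaned on right control 3, whose Kcnc2 value was the lowest of the 12 arrays, and it was 0.017 without that array; the Kcnc1 difference was then 0.064. Over all genes 0% passed the adjusted threshold, 4.31% had an unadjusted p under 0.05 and 7.48% had arrays that did not overlap.

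Averaged over both sides, the change with deafness was 0.016 for Kcnc1 (SE 0.074, n = 6 arrays per arm, 95% interval -0.15 to 0.18) and -0.014 for Kcnc2 (SE 0.068, -0.16 to 0.13). These intervals are the narrowest of the comparisons: a ratio of 0.904 to 1.13 for Kcnc1 and of 0.894 to 1.10 for Kcnc2. They take left and right arrays as independent, and the labels do not say whether these share rats. For Kcnc2 the mean joins differences of opposite sign, -0.12 on the left and 0.091 on the right, so its interval bounds neither side alone. Neither passed (limma adjusted p = 0.998 for both). In a two-sided exact permutation test that kept each array on its side, p was 0.825 for Kcnc1 and 0.83 for Kcnc2, where 0.005 is the smallest it can give. On 1 side alone the exact permutation test cannot go below 0.1, and it gave p = 1 (left) and 0.9 (right) for Kcnc1 and p = 0.2 (left) and 0.3 (right) for Kcnc2. Over all genes 0% passed the adjusted threshold, 4.53% had an unadjusted p under 0.05, and 0.27% had all 6 deaf arrays beyond all 6 control arrays.

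The sides were also compared within each arm. Left minus right in deaf rats was 0.031 for Kcnc1 (SE 0.10) and -0.14 for Kcnc2 (SE 0.096, 95% interval -0.35 to 0.066); left deaf 3, at 9.35, was the left array that reached into the right deaf range for Kcnc2. In control rats it was 0.025 for Kcnc1 (SE 0.10) and 0.067 for Kcnc2 (SE 0.096). None of these passed limma's test (adjusted p = 1.00 for both genes in deaf rats, and 0.988 for Kcnc1 and 0.963 for Kcnc2 in control rats). Over all genes 0% passed in either comparison; an unadjusted p under 0.05 was found for 3.34% in deaf and 4.95% in control rats, and arrays did not overlap for 8.31% in deaf and 9.8% in control rats.

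Kcnc2 had opposite signs on the 2 sides, lower in deaf arrays on the left and higher on the right. The difference between the sides' changes, left minus right, was -0.21 for Kcnc2 (SE 0.14, 95% interval -0.51 to 0.086) and 0.0064 for Kcnc1 (SE 0.15, -0.32 to 0.33). It did not pass for either gene (limma adjusted p = 1.00 for both), 24.0% of genes had a larger one than Kcnc2, and 0% of all genes passed the adjusted threshold, with 3.42% at an unadjusted p under 0.05.

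**Figure D2:**
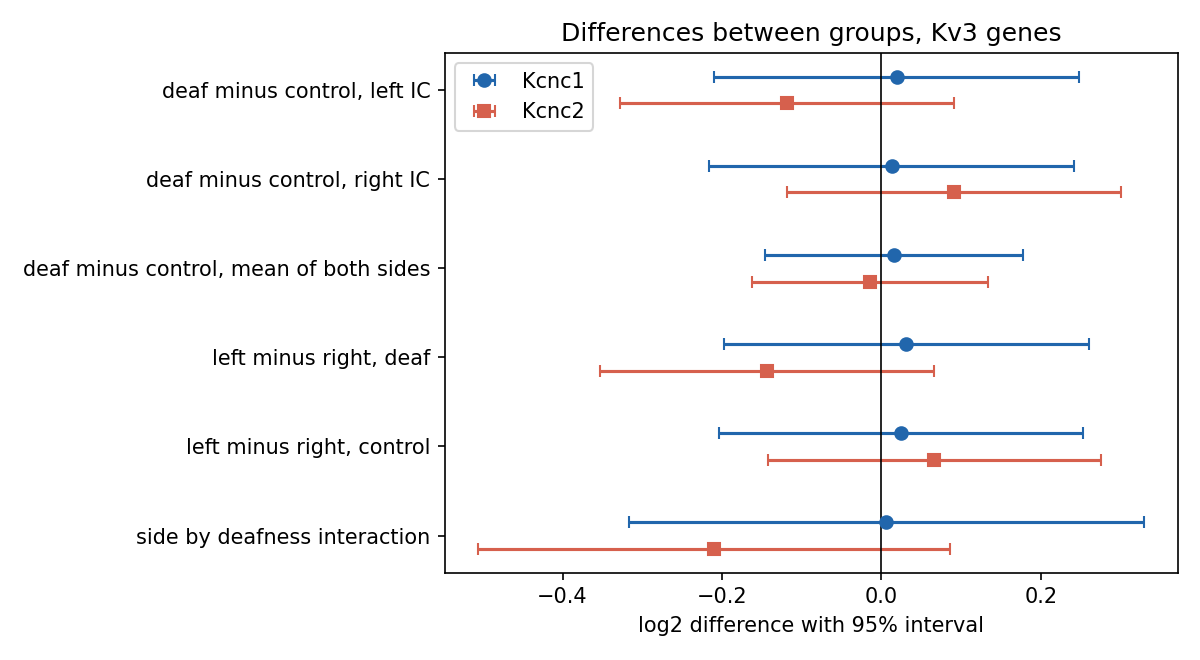
Log2 differences of Kcnc1 (circles) and Kcnc2 (squares) in the 6 comparisons, with 95% intervals from limma; the interaction is the left change minus the right change. Every interval includes 0, and the narrowest are those of the mean of both sides (-0.15 to 0.18 for Kcnc1, -0.16 to 0.13 for Kcnc2).

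Both genes were steadier between replicate arrays than most of all genes measured, a comparison that includes dim genes. Both probes were bright, and whether Kcnc1 and Kcnc2 were steadier than genes of like level was not tested. The residual SD was 0.12 for Kcnc1, with 65.6% of genes above it, and 0.11 for Kcnc2, with 75.6% above it, where the median over genes was 0.15. Their array-to-array values gave no stable correlation. Over the 12 arrays Pearson's r between them was 0.0028 and Spearman's rho was -0.23. Without left control 2 and left control 3, the arrays farthest out for Kcnc1, r was -0.84, and without right control 3 and left deaf 1, farthest out for Kcnc2, it was 0.49, so its sign rested on 2 arrays at a time.

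Other genes followed each of them more closely. Among 8999 other named genes above the median level, those most like Kcnc1 over the 12 arrays were Ahsa2 (Pearson's r = 0.88), Chd2, a chromatin remodeller gene (0.88), and Purb, a gene for a single-stranded DNA-binding protein (0.87). Spearman's rho was 0.80, 0.84 and 0.65 for them, and r was 0.71, 0.79 and 0.54 without left control 2 and 3. Those most like Kcnc2 were Tstd3 (0.91), Gpr180 (0.91) and Rad50, a gene of double-strand break repair (0.90), with rho of 0.90, 0.88 and 0.88, and with r of 0.91, 0.85 and 0.82 without right control 3 and left deaf 1. These are the highest of many correlations over arrays that share their groups and their normalization, and they are given as a description.

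Of 37 other voltage-gated potassium channel subunit genes 33 were measured, and 0 passed the adjusted threshold in any of the 6 comparisons. On the left, 2 of 33 had an unadjusted p under 0.05, both lower in deaf arrays, that is 2 of 33 beside 3.69% of all genes in either direction and 1.99% lower. They were Kcng4 (-0.30, SE 0.11) and Kcns3 (-0.22, SE 0.086), which encode silent subunits that alter Kv2 channels, and next came Kcnd2, the Kv4.2 gene (-0.15, SE 0.089). Kcng4 was at 6.42, 6.77 and 6.59 in left deaf arrays, against 6.85, 6.83 and 7.01 in left control arrays. Kcns3 was at 5.22, 5.16 and 5.20 in left deaf arrays, against 5.30, 5.47 and 5.48 in left control arrays. The left arrays of these 3 genes did not overlap, which makes 3 of 33, all lower in deaf arrays. Over all genes it was 10.3% in either direction and 5.7% lower.

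On the right, 1 of the 33 had an unadjusted p under 0.05, beside 4.31% of all genes. It was Kcng2 (-0.37, SE 0.14), another silent subunit gene, ahead of the ether-a-go-go family genes Kcnh4 (0.20, SE 0.11) and Kcnh8 (0.21, SE 0.14). Kcng2 was at 5.52, 5.38 and 5.76 in right deaf arrays, against 5.92, 5.83 and 6.01 in right control arrays, whose cerebellar marker scores, described further on, were 0.37, 0.077 and 0.56; the part of cerebellar tissue in it was not tested. Without right deaf 3 the Kcnh4 difference was 0.11, and without right deaf 1 the Kcnh8 difference was 0.089. The median difference of the 33 genes was -0.040 on the left and 0.0038 on the right, beside -0.0051 and 0.0014 over all genes. Averaged over the sides it was 0.0080, beside -0.0014, and the smallest unadjusted p were those of Kcns3 (-0.16, SE 0.061), Kcng2 (-0.23, SE 0.096) and Kcnh5 (0.14, SE 0.070), 2 of the 33 under 0.05, beside 4.53% of all genes. Left minus right, 27 of the 33 were below 0 in deaf rats (median -0.076, beside -0.0057 over all genes) and 21 of the 33 in control rats (median -0.019, beside -0.0013). In deaf rats 1 of the 33 had an unadjusted p under 0.05, beside 3.34% of all genes. Arrays did not overlap for 5, all lower on the left, beside 8.31% of all genes in either direction and 4.58% lower. That median was -0.037 without right deaf 3, -0.039 without left deaf 1 and -0.028 among genes above the median level.

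Of 16 genes for proteins that bind, carry or modify Kv3 channels or act on their transcripts, 13 were measured. Of these, 0 had an unadjusted p under 0.05 in any comparison, beside 3.34% to 4.95% of all genes. For 13 genes, 0 is close to that share. The left differences ran from -0.070 to 0.16, with Kif5b, the kinesin motor that carries Kv3.1 into axons, at the upper end (0.16, SE 0.085) and Csnk2b (0.081, SE 0.098), a subunit of casein kinase 2, and Prkce (0.064, SE 0.078), a protein kinase C gene, after it by p. On the right the range was -0.15 to 0.10, with Fmr1, whose RNA-binding protein associates with Kv3.1 transcripts, lowest (-0.15, SE 0.093) and Csnk2a2 (0.10, SE 0.073) and Prkca (0.099, SE 0.081) at the other end. Without right control 3 the right Fmr1 difference was -0.081 and that of Prkca 0.15, and without right control 2 the Prkca difference was 0.053. On the left, Prkce was at 0.035 without left deaf 1 and 0.096 without left deaf 3, and Csnk2b ran from -0.021 without left control 2 to 0.17 without left control 1. The median of the 13 genes was 0.0086 on the left and -0.025 on the right, beside -0.0051 and 0.0014 over all genes.

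Among fast-spiking neuron genes other than the Kv3 genes, differences leaned below 0 on the left and over both sides. They were near an even split on the right. Of 20 listed 18 were measured, including Kcna1 and Kcna2 of the subunit list. Of these, 13 were lower in deaf arrays on the left and 10 on the right, with medians of -0.025 on both sides. Over all genes the medians were -0.0051 and 0.0014, so about as many genes lay above 0 as below it. Of the 18 listed genes measured, 0 passed the adjusted threshold. An unadjusted p under 0.05 was found on the left for 1, the pacemaker channel gene Hcn2 (-0.26, SE 0.091), with the GABA-synthesis gene Gad1 at -0.23 (SE 0.12) and Nefh at -0.20 (SE 0.11). That is 1 of 18, beside 3.69% of all genes. On the right it was found for 2, Nefh, the heavy neurofilament gene (-0.29, SE 0.11), and Scn4b, a sodium channel beta subunit gene linked to resurgent current (-0.27, SE 0.10); Hapln1, a perineuronal net link protein gene, was at -0.17 (SE 0.087). That is 2 of 18, beside 4.31% of all genes, in a comparison in which 14 of 16 cerebellar markers (median -0.43) and 11 of 11 oligodendrocyte markers (median -0.098) were lower as well; their part in these values was not tested. Over both sides 14 of 18 were lower in deaf arrays, and the median was -0.048, beside -0.0014 over all genes. The order by p was Nefh (-0.25, SE 0.076), Hcn2 (-0.15, SE 0.064) and the vesicular GABA transporter gene Slc32a1 (-0.12, SE 0.071). Of these, Nefh and Hcn2 had an unadjusted limma p under 0.05. That is 2 of 18, both lower, beside 4.53% of all genes in either direction and 2.52% lower. Without right control 3 the right median of the list was -0.095 and the right Hapln1 difference -0.094, and without right control 1 the right Nefh difference was -0.18. Without left control 1 the left Nefh difference was -0.12, and without left deaf 3 the Slc32a1 difference over both sides was -0.073.

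Nefh, which had the smallest p of these lists, was at 9.20, 9.13 and 9.09 in left deaf arrays, against 9.52, 9.32 and 9.20 in left control arrays. On the right it was at 9.21, 9.25 and 9.31 in deaf arrays, against 9.76, 9.47 and 9.42 in control arrays. The right groups did not overlap, and on the left the highest deaf array just reached the lowest control array. Hcn2 was at 8.85, 8.76 and 8.75 in left deaf arrays, against 9.08, 9.04 and 9.02 in left control arrays, with no overlap. On the right it was at 8.89, 8.99 and 9.06 in deaf arrays, against 9.19, 8.97 and 8.87 in control arrays, and these groups overlapped. Nefh and Hcn2 kept an adjusted p of 0.998 or more in limma on both sides.

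Pvalb, the parvalbumin gene, which marks many fast-spiking neurons that carry Kv3 channels, overlapped between groups on both sides. It was at 9.40, 9.10 and 8.95 in left deaf arrays, against 9.09, 9.34 and 9.11 in left control arrays. On the right it was at 9.23, 9.16 and 9.09 in deaf arrays, against 9.23, 9.15 and 9.05 in control arrays. Its differences were -0.032 on the left and 0.018 on the right (SE 0.12 each). Pvalb is named here after its values were seen.

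**Figure D3:**
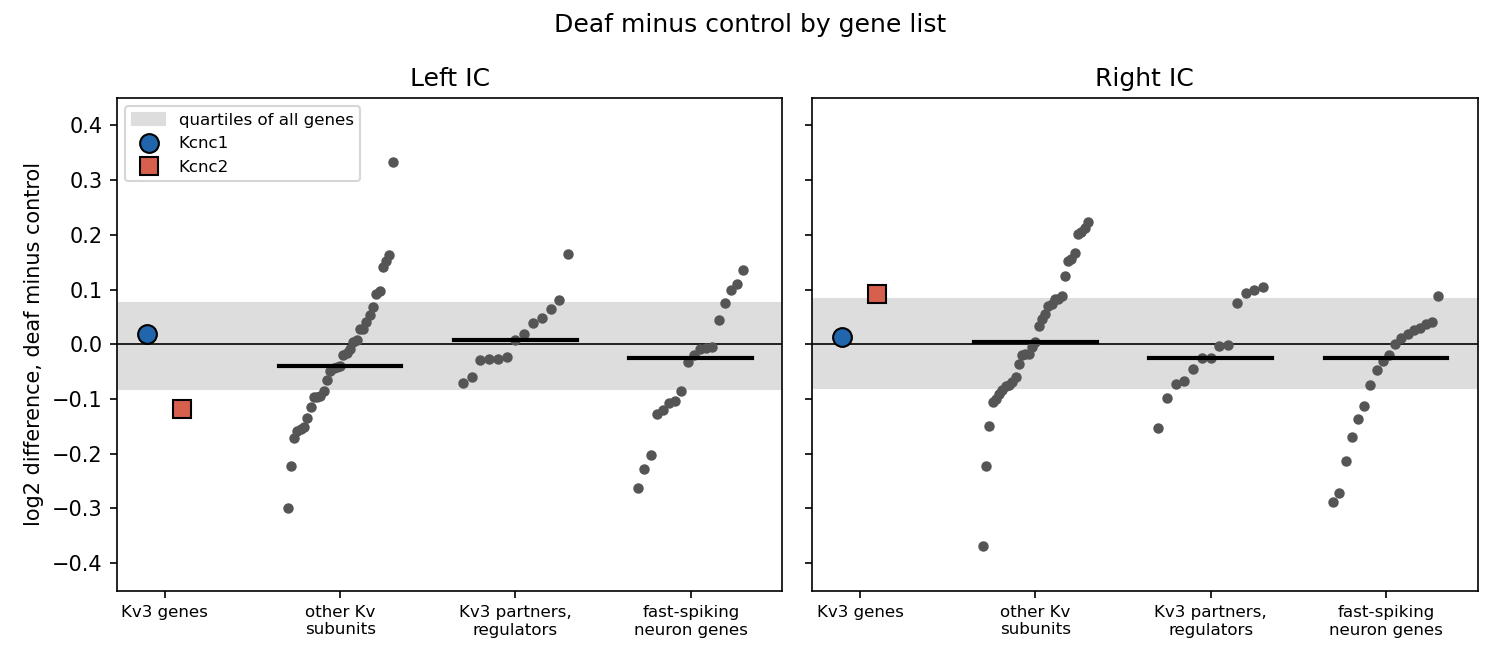
Log2 difference, deaf minus control, of Kcnc1, Kcnc2 and every measured gene of 3 lists in the left IC (left panel) and the right IC (right panel); each point is a gene, black bars are list medians and the grey band spans the quartiles of all genes. Kcnc1 lies inside the band on both sides, and Kcnc2 lies just below it on the left (-0.12) and just above it on the right (0.091).

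Cerebellar tissue borders the IC, and Kcnc1 is known to be abundant in cerebellar granule cells, so the Kv3 values are given beside cerebellar markers. The cerebellar score, the mean of 16 gene-centred markers, was -0.19 to -0.14 in right deaf arrays and 0.077 to 0.56 in right control arrays, and it was -0.13 to -0.027 in left deaf and -0.16 to -0.038 in left control arrays. Of the 16 markers 14 were lower in right deaf than in right control, 7 with an unadjusted p under 0.05, beside 4.31% of all genes (2.19% lower), and 0 past the adjusted threshold. Their defining granule cell marker Gabra6 averaged 2.84 in right deaf and 4.38 in right control. Both means lay below the lower quartile of gene means (4.48), while right control 3 alone was at 5.30. Slc17a7, another of the 16 markers, averaged 4.80 in right deaf and 6.31 in right control. Its right control arrays, at 5.81 to 7.14, lay above every other array, and their mean exceeded the median of gene means, 5.97. On right control 3, where the score was highest (0.56), Kcnc1 was at 8.87, the highest of its group, and Kcnc2 at 9.13, the lowest. On right control 1, where the score was 0.37, they were at 8.73 and 9.35, close to right control 2. Over the 12 arrays Pearson's r with the score was -0.087 for Kcnc1 (rho -0.34) and -0.37 for Kcnc2 (rho -0.47), and without right control 3 it was -0.43 and 0.034. Without the 2 arrays of most extreme score, right control 3 and 1, it was -0.60 and -0.064. The score of 8 choroid plexus and ependymal markers had a larger r in size, -0.41 for Kcnc1 and 0.45 for Kcnc2. Without right control 3 this was -0.35 and 0.16. For 3 blood markers r was 0.026 for Kcnc1 and 0.40 for Kcnc2, and without right control 3 it was -0.019 and 0.58. The part of cerebellar or other tissue in the Kv3 values was not tested.

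Markers of other tissues also differed between arrays. Meningeal and fibroblast markers varied widely between arrays on both sides. Their score was -0.10, 0.64 and -0.15 in left deaf arrays, against 0.13, -0.25 and -0.39 in left control arrays. On the right it was 0.086, 0.47 and -0.57 in deaf arrays, against 0.56, -0.097 and -0.31 in control arrays. Deaf and control arrays overlapped on both sides. All 14 of these markers had a higher mean in left deaf than in left control (median 0.27). Oligodendrocyte markers were lower in deaf arrays for 8 of 11 on the left (median -0.062) and 11 of 11 on the right (median -0.098). None of either list passed limma's adjusted threshold; an unadjusted p under 0.05 was found for 0 of 14 meningeal markers on the left, and for 2 of 11 oligodendrocyte markers on each side, beside 3.69% of all genes on the left and 4.31% on the right. The forebrain and hippocampal score was 0.012, 0.091 and 0.28 in right control arrays, highest on right control 3. In left control arrays it was -0.050, -0.074 and -0.15. Left minus right in control rats, 10 of 11 of these markers were below 0 (median -0.16). Of these 2 had an unadjusted limma p under 0.05, beside 4.95% of all genes. Right deaf minus control, 8 of 11 were below 0 (median -0.14), and on the left 5 of 11 (median 0.027). The part of these tissues in the Kv3 values was not tested.

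**Figure D4:**
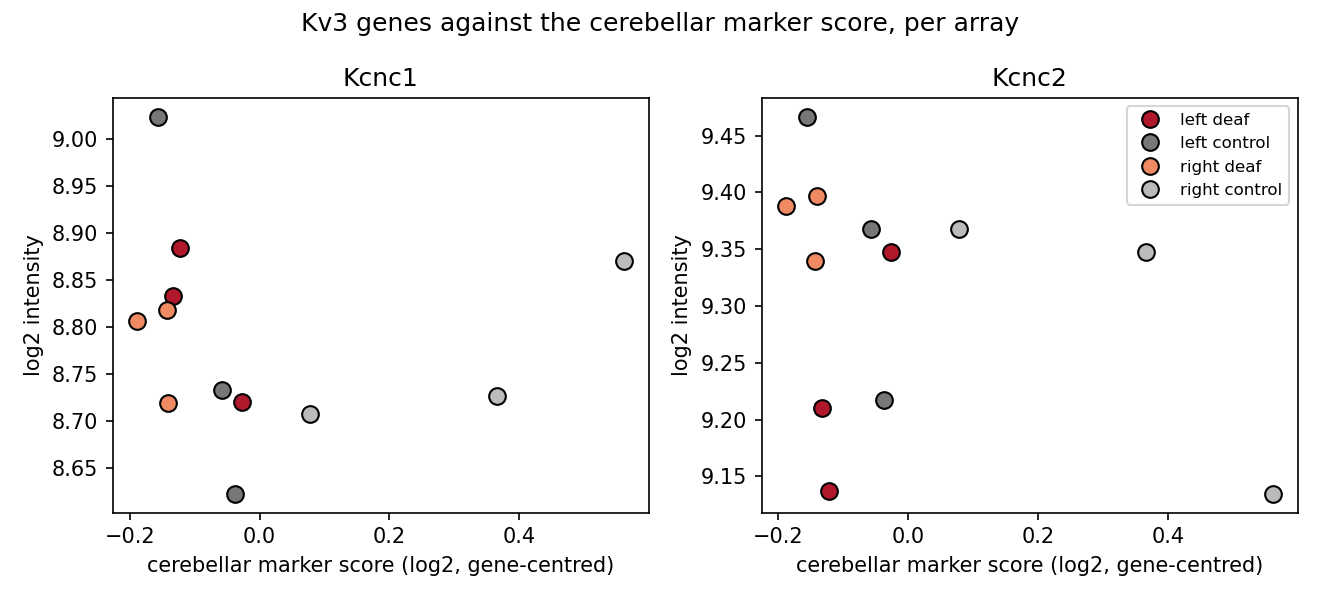
Log2 intensity of Kcnc1 (left panel) and Kcnc2 (right panel) against the cerebellar marker score of the same array, with 1 point per array in the colour of its group. Right control 3, at a score of 0.56, holds the lowest Kcnc2 value, and the highest Kcnc1 value (9.02) lies on an array of negative score.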

How the data were processed

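Total RNA gave biotin-labelled cDNA for 1-colour Affymetrix arrays, per the labels. The deposited values are log2 intensities and look normalized between arrays by the authors, since at any rank the 12 arrays differ by at most 0.0995; the log base was read from their range of 1.33 to 13.1, while software and array build were not given in the sources used here. Of 29489 probes 18511 had 1 gene symbol, and the brightest probe per gene was kept, with no filter on dim genes.

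Linear models of 4 group means were fitted to all 12 arrays and 18166 genes with limma 3.58.1 (R 4.3.3) and tested on simulated data. Tests were two-sided, with a threshold of 0.05 on Benjamini-Hochberg adjusted p-values over all genes. The members and lists were chosen with earlier results of these data known. Named list genes were up to 3 per list and contrast with the smallest p; genes like a member were the 3 of highest Pearson's r above the median level, skipping predicted, microRNA and receptor-cluster symbols. Alternatives were other normalizations, filters, probe rules, variance models, array weights, fewer groups, replicate blocks and leaving out each array.

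Same-numbered arrays of the left and right IC deviated together at r of -0.056 to 0.15 (over 0.1 in 2 of 6 pairs), and the labels tie no arrays to the same rat, so no pairing was assumed. Promoters are RefSeq sequences of GRCr8; symbols come from the platform annotation.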

Additional observations from a re-analysis of the deposited data

How the results depend on the processing

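Under the 10 alternatives other than leaving out an array (9 for the mean of both sides and the interaction, which need all groups), both Kv3 genes kept the sign of each of the 6 comparisons and neither passed the threshold. With the replicate block the Kcnc1 and Kcnc2 differences were 0.019 and -0.12 on the left and 0.013 and 0.091 on the right; each number occurs once in every group, so the block cannot move a difference. Other normalizations and array weights were the alternatives here that could. The numbers were not taken as pairs.

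Leaving out 1 of the 12 arrays at a time, no Kv3 difference passed (smallest limma adjusted p = 0.789), but small differences changed sign. Kcnc1 ran from -0.066 to 0.13 on the left, -0.017 to 0.064 on the right and -0.026 to 0.074 over both sides, from -0.0044 to 0.077 left minus right in deaf and -0.090 to 0.11 in control rats, and from -0.079 to 0.12 for the interaction. Kcnc2 ran from -0.051 to 0.015 over both sides and from -0.0077 to 0.13 left minus right in control rats; it kept its sign on the left (-0.19 to -0.060), on the right (0.017 to 0.13), left minus right in deaf rats (-0.20 to -0.096) and in the interaction (-0.28 to -0.14). Csnk2b on the left ran from -0.021 to 0.17.

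The count of genes past the threshold, 0 in every comparison, moved in few fits, and the genes are named after their values were seen. On the left it was 1 (Vgf) among genes above the median level, 1 (Vgf) with trend and robust estimation, and 0 to 1 with an array left out (Vgf, without left deaf 3). Left minus right in deaf rats it was 1 (Vgf) and 2 (Vgf and Or52a5b) in the first and second of these fits. With the replicate block it was 1 (RGD1565183) left minus right in control rats and 1 (the same) for the interaction. Over both sides it was 0 to 1 with an array left out (Clec2d2, without right control 3). The cause was not tested. The number of arrays limits the precision.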
